A study of Sorghum bicolor with 12 samples.

Results

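The salt response that 2 sweet sorghum lines had in common was described over all 12 root libraries of the study. The lines were M-81E, which tolerates salt, and Roma, which is sensitive to it. Treatment began at the 3-leaf stage, with control plants (CK) kept at 0 mM NaCl and salt plants brought to 150 mM in steps of 50 mM every 12 h. The methods place sampling of the roots after 24 h at the final concentration, whereas the labels give 24 h as the length of the treatment. Each line had a control group and a salt group, named M-81E-CK and M-81E-salt or Roma-CK and Roma-salt, with 3 libraries in each of the 4 groups, and no genetic change or further agent was given to any of them. The methods speak of biological replicates, but the labels do not say which plants went into a library, so p-values measure only the spread between these libraries.

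The unit was FPKM, a fragment count divided by transcript length and by the size of the library. Of 34352 loci in the table, 15250 had an annotated gene name of the form SORBI and a mean of at least 1 FPKM, and these were tested. The main effect of salt was the difference between salt and CK on log2(FPKM + 1) with line as a covariate, fitted by limma over the 12 libraries. This scale understates the change of loci with low FPKM. A locus was called when its Benjamini-Hochberg adjusted p over all 15250 loci was under 0.05. It was called shared when, in addition, the difference had the same sign in M-81E and in Roma with an unadjusted p under 0.05 in each line. The differences and p-values printed for shared loci are those that chose them, so they describe the loci and give no independent test.

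Salt outside a root lowers the water potential that the root draws against and brings sodium into competition with potassium. Roots are known to answer through abscisic acid (ABA), through proton pumps and ion channels that set the membrane potential, and through sugars and other solutes that hold water in the cell. Catalases and peroxidases handle the hydrogen peroxide that forms under stress, and peroxidases also take part in building the cell wall.

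Pearson correlations of log2(FPKM + 1) were highest within groups (0.882 to 0.907), followed by CK against salt within a line (0.825 to 0.885) and by M-81E against Roma (0.755 to 0.816). Relative depth, estimated from the smallest steps between low values, ran from 0.812 to 1.04. The summed FPKM of 27 loci of the light-harvesting antenna, a leaf marker, was 14.3 to 37.5, and that of 10 Casparian strip loci, which mark the root endodermis, was 61.7 to 98.9. Wider lists gave 159 to 209 for 88 green tissue loci and 1544 to 2171 for 95 root hair and Casparian strip loci. The 2 root markers found by Description summed to only 0.953 to 2.28, and the 2 green tissue markers to 0.0379 to 0.360. The summed FPKM of 11 marker loci of dividing cells was 403 to 536 in M-81E-CK, 302 to 433 in M-81E-salt, 394 to 556 in Roma-CK and 459 to 532 in Roma-salt, with 0 of the 10 tested members called by limma and 1 in each direction at an unadjusted p under 0.05. The part of these markers in the results was not tested. In whole roots, fewer cells of a type and less RNA per cell cannot be told apart.

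In the main effect, 866 loci were higher in salt (5.68% of those tested) and 673 were lower (4.41%). Of these 1539 loci, 0 had opposite signs in the lines. The main fit counts a difference between the lines as error, so a locus with opposite signs could hardly be called. This 0 therefore does not measure agreement between the lines. The stricter rule left 1049 shared loci (68.2% of the called loci), of which 582 were higher in salt (3.82% of all tested) and 467 were lower (3.06%). The remaining 490 passed within a single line, 327 of them in Roma and 163 in M-81E. Roma-CK replicate 2 had the largest hold on these counts. Without it 465 loci were higher and 431 lower in the main effect, and 399 and 366 were shared. List counts given below without this library are to be read against these 465 and 431 loci, not against 5.68% and 4.41%.

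Within lines, 1862 loci were higher (12.2%) and 1474 lower (9.67%) in M-81E at an unadjusted p under 0.05, against 2074 and 2023 in Roma. These limma p-values came from a joint fit of all groups, in which both lines had the same error at a locus. A locus with a small error passes more easily in both lines, so the overlaps below do not measure agreement alone. Under the rule for shared loci, fitting each line alone left 502 higher and 432 lower, beside 582 and 467. The 595 loci that were higher in both made up 32% of the M-81E loci, where 13.6% of all tested loci were higher in Roma, and 28.7% of the Roma loci. The 479 loci that were lower in both made up 32.5% of the M-81E loci, where 13.3% of all tested loci were lower in Roma, and 23.7% of the Roma loci. Over all 15250 loci the salt differences of the lines had a Pearson r of 0.162, across genes that are not independent, and 8845 loci (58%) had the same sign in both lines. A locus that passed in 1 line alone is not shown to differ between the lines, since the test of that difference, the interaction, passed at 3.48% of all tested loci.

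**Figure D1:**
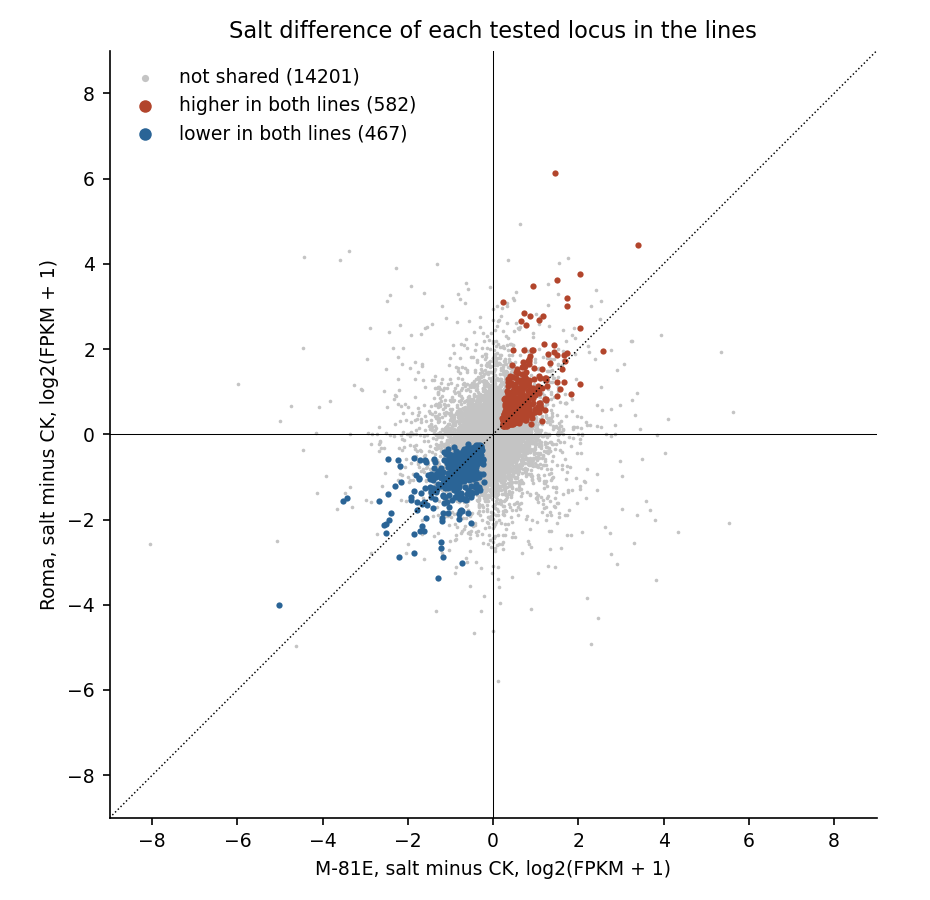
Salt minus CK difference of each tested locus on log2(FPKM + 1), in M-81E on the x axis and in Roma on the y axis. Red points are the 582 shared loci that were higher in salt, blue points the 467 that were lower, and grey points all other tested loci. The shared loci occupy the upper right and lower left, with Roma reaching larger differences than M-81E at some of them.

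Shared changes were mostly modest in size. The main effect of the loci that rose had a median of 0.55 on the log2 scale (range 0.21 to 3.92), and that of the loci that fell had a median size of 0.73 (range 0.28 to 4.52). Only 35 shared loci rose and 75 fell by at least 1 on the log2 scale in both lines. All 3 salt libraries lay beyond all 3 CK libraries in both lines at 514 of the loci that rose (88.3%) and 405 of those that fell (86.7%), whereas 5.02% of all tested loci had the salt groups entirely above and 3.67% entirely below in both lines (8.69% in all). The rule itself favours such loci, so these shares describe the members and test nothing. Shared loci had a median mean level of 6.79 FPKM where they rose and 7.41 where they fell, and all tested loci had 4.82.

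Among the loci that rose most in both lines, ranked by the smaller of the 2 lines' differences, potassium transport, glycolysis, sucrose cleavage and hydrogen peroxide removal were each represented by a single locus. SORBI_3003G300600, annotated as a voltage-gated potassium channel, the kind of protein that lets potassium cross the plasma membrane, was at 2.11, 2.18 and 2.54 FPKM in M-81E-CK and 13.3, 15.6 and 9.34 in M-81E-salt, and at 1.74, 0.938 and 0.363 in Roma-CK and 10.5, 8.87 and 10.3 in Roma-salt. Its salt libraries were all above its CK libraries, and its mean level was 5.60-fold higher in salt in M-81E and 9.74-fold higher in Roma (main effect 2.27 ± 0.18 SE, limma adjusted p = 8.47e-05). SORBI_3001G384100, a phosphoglycerate mutase that acts in the later steps of glycolysis, was at 1.84, 1.13 and 1.25 FPKM in M-81E-CK and 9.77, 8.73 and 7.93 in M-81E-salt, and at 1.83, 1.87 and 2.85 in Roma-CK and 30.6, 33.2 and 70.4 in Roma-salt. Levels before salt were alike in both lines, and in salt all 3 Roma libraries were above all 3 M-81E libraries. The rise was 6.26-fold in M-81E and 20.5-fold in Roma, and the difference between the lines itself passed the interaction test (1.72 on the log2 scale, limma adjusted p = 0.0472).

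SORBI_3001G378300, a sucrose synthase, which splits sucrose into fructose and a nucleotide sugar, was at 6.40, 7.35 and 8.88 FPKM in M-81E-CK and 26.6, 24.9 and 25.9 in M-81E-salt, and at 15.1, 12.9 and 8.51 in Roma-CK and 37.2, 35.6 and 70.7 in Roma-salt. Both lines kept their treatments apart, with rises of 3.42-fold and 3.93-fold (main effect 1.76 ± 0.18 SE, limma adjusted p = 0.000454). SORBI_3004G011566, a catalase, which breaks down hydrogen peroxide, was at 8.27, 9.54 and 7.998 FPKM in M-81E-CK and 42.5, 30.1 and 13.7 in M-81E-salt, and at 26.6, 24.5 and 19.8 in Roma-CK and 91.8, 66.3 and 112 in Roma-salt. The M-81E-salt libraries ranged widely, yet the lowest was above every M-81E-CK library. SORBI_3009G057400, annotated to cytochrome-c oxidase of the mitochondrial respiratory chain, was at 1.50, 1.31 and 1.22 FPKM in M-81E-CK and 8.93, 5.94 and 5.32 in M-81E-salt, and at 0.248, 0.116 and 0.335 in Roma-CK and 2.55, 2.85 and 3.88 in Roma-salt, a rise of 5.01-fold and 13.3-fold with no overlap in either line.

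Loci with stress annotation were also among these 12. SORBI_3001G418600, annotated to protein folding and the response to heat, was at 1.04, 0.653 and 0.340 FPKM in M-81E-CK and 6.05, 4.27 and 3.41 in M-81E-salt, and at 0.344, 0.673 and 1.03 in Roma-CK and 8.76, 12.4 and 17.5 in Roma-salt. Its salt libraries were above its CK libraries in both lines, by 6.75-fold and 18.8-fold in the means. SORBI_3009G116700, annotated to cold acclimation and the responses to ABA and water deprivation, was at 6.13, 2.67 and 8.06 FPKM in M-81E-CK and 30.4, 13.5 and 10.6 in M-81E-salt, and at 8.17, 5.23 and 11.9 in Roma-CK and 64.7, 75.2 and 276 in Roma-salt. Both salt groups were above their controls, but a single Roma-salt library stood far above the other 2. Its main effect was 2.56 ± 0.52 SE (limma adjusted p = 0.0119).

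The remaining 5 loci have little or no annotation. SORBI_3009G110400, which carries no GO term, was at 0.163, 0.509 and 0.212 FPKM in M-81E-CK and 6.16, 7.30 and 6.57 in M-81E-salt, and at 0.606, 0.359 and 1.22 in Roma-CK and 4.27, 7.63 and 5.04 in Roma-salt, and its treatments did not overlap in either line. SORBI_3010G231900, annotated as anchored to the plasma membrane, was at 0.132, 1.28 and 2.37 FPKM in M-81E-CK and 8.44, 10.8 and 1.88 in M-81E-salt, and at 15.1, 17.2 and 5.96 in Roma-CK and 95, 114 and 139 in Roma-salt, with overlap between the treatments in M-81E. SORBI_3006G221300, annotated to cell morphogenesis, was at 0.225, 0.374 and 0.478 FPKM in M-81E-CK and 0.604, 5.79 and 7.29 in M-81E-salt, and at 0.174, 0.423 and 0.600 in Roma-CK and 9.66, 3.25 and 2.19 in Roma-salt, so that its salt libraries spread over several-fold in each line while all lay above the controls. SORBI_3003G149200, without a GO term, was at 2.44, 3.60 and 0.463 FPKM in M-81E-CK and 5.94, 22.96 and 3.07 in M-81E-salt, and at 12.02, 9.86 and 20.7 in Roma-CK and 33.2, 42.8 and 48.7 in Roma-salt. Its treatments overlapped in M-81E, and its adjusted p of 0.0372 did not hold in 11 of 21 alternatives (highest limma adjusted p 0.0851).

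SORBI_3002G109500, also without a GO term, was at 0, 1.95 and 0 FPKM in M-81E-CK and 9.96, 13.9 and 19.8 in M-81E-salt, and at 0, 0 and 0 in Roma-CK and 6.75, 153 and 7.56 in Roma-salt. It is listed at 0 in all Roma-CK libraries and in 2 of the M-81E-CK libraries, and 1 Roma-salt library was far above all others, so no fold is given. Its main effect was 3.92 ± 0.68 SE, the widest error among the 12. Just past the 12, SORBI_3009G215700, described as a late embryogenesis abundant (LEA) protein of the kind that protects drying tissue, was at 5.54, 5.40 and 4.63 FPKM in M-81E-CK and 16.4, 28.3 and 8.32 in M-81E-salt, and at 5.43, 7.43 and 5.74 in Roma-CK and 335, 398 and 920 in Roma-salt. It rose in both lines, 3.40-fold in M-81E and 88.9-fold in Roma. The 12th and 13th loci that rose had smaller differences of 1.49 and 1.44, and the 12th and 13th that fell 1.68 and 1.63.

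**Figure D2:**
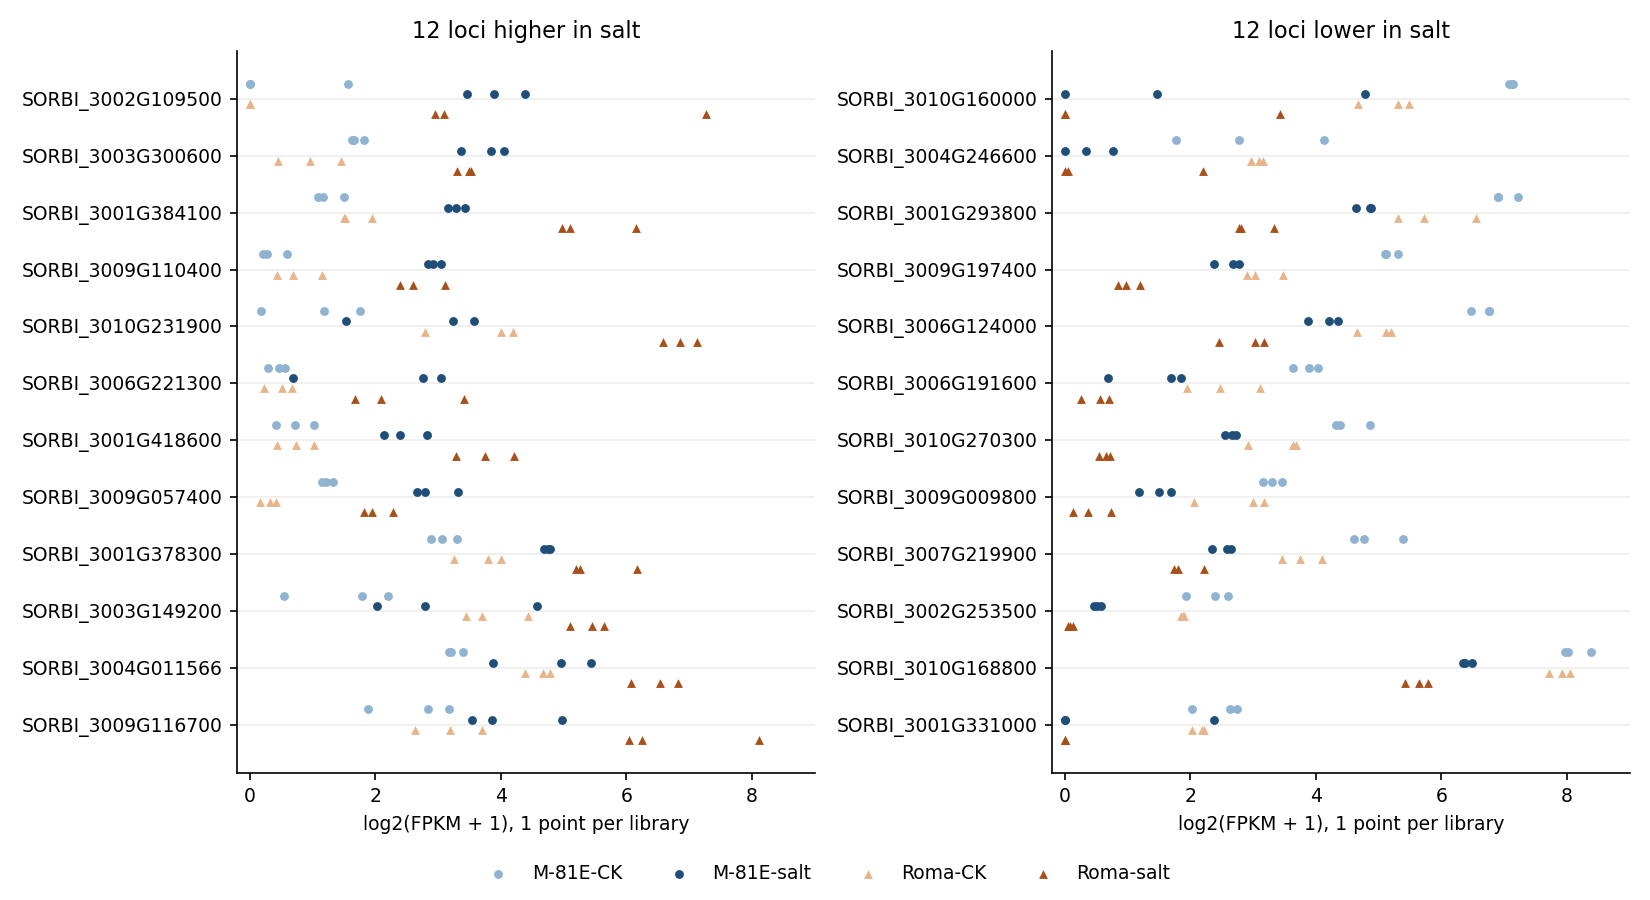
Level of the 12 loci that rose and the 12 that fell most in both lines, as log2(FPKM + 1) in each of the 12 libraries, with loci in rows and the 4 groups marked by the colour and shape given in the legend. Salt and CK libraries of a line are separate at 21 of the 24 loci, and wide gaps within groups occur both with and without a library listed at 0.

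The loci that fell most included enzymes of starch breakdown, inositol oxidation and the raffinose sugars. SORBI_3001G293800, a beta-amylase, which releases maltose from starch, was at 119, 119 and 149 FPKM in M-81E-CK and 28.6, 28.3 and 24.03 in M-81E-salt, and at 38.8, 51.8 and 92.6 in Roma-CK and 9.14, 6.03 and 5.86 in Roma-salt. Its mean level was 4.77-fold lower in salt in M-81E and 8.71-fold lower in Roma, without overlap (main effect -2.55 ± 0.22 SE, limma adjusted p = 0.000126). SORBI_3010G168800, an inositol oxygenase, which opens the ring of myo-inositol, was at 258, 249.5 and 333 FPKM in M-81E-CK and 80.2, 81.9 and 88.4 in M-81E-salt, and at 209.7, 240.1 and 263 in Roma-CK and 49.1, 53.99 and 41.9 in Roma-salt. It was among the more highly expressed of these loci, and its decline of 3.35-fold and 4.92-fold had a narrow spread (main effect -2.00 ± 0.13 SE). SORBI_3007G219900, a galactinol-sucrose galactosyltransferase, the activity that makes raffinose, was at 26.2, 23.4 and 40.9 FPKM in M-81E-CK and 5.27, 4.07 and 4.98 in M-81E-salt, and at 9.97, 16.1 and 12.4 in Roma-CK and 2.50, 3.64 and 2.36 in Roma-salt. The treatments did not overlap, and the mean was 6.33-fold and 4.53-fold lower in salt.

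Another set of these loci acts on small molecules and lipids. SORBI_3009G197400, an O-methyltransferase of aromatic compounds, was at 33.3, 33.9 and 38.5 FPKM in M-81E-CK and 4.20, 5.88 and 5.39 in M-81E-salt, and at 6.48, 10.2 and 7.19 in Roma-CK and 0.968, 1.31 and 0.812 in Roma-salt. Its main effect of -2.35 ± 0.13 SE had a limma adjusted p of 2.07e-05, equal to that of SORBI_3002G253500, and M-81E lay above Roma under both treatments. SORBI_3002G253500, a sarcosine oxidase, was at 4.24, 2.83 and 5.09 FPKM in M-81E-CK and 0.493, 0.388 and 0.435 in M-81E-salt, and at 2.63, 2.73 and 2.68 in Roma-CK and 0.0947, 0.0427 and 0.0578 in Roma-salt, without overlap in either line. Neighbouring identifiers, SORBI_3009G197000 and SORBI_3009G197600, carry the same GO terms as SORBI_3009G197400 and also fell (main effects -1.20 and -1.05). The latter was not called in 8 of 21 alternatives, and how reads were divided between these copies was not tested.

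SORBI_3006G124000, whose GO terms include histone acetyltransferase activity and ABA- and auxin-activated signalling, was at 107, 87.4 and 107 FPKM in M-81E-CK and 19.5, 17.6 and 13.7 in M-81E-salt, and at 24.2, 33.9 and 35.6 in Roma-CK and 7.21, 8.04 and 4.53 in Roma-salt. The decline was 5.93-fold in M-81E and 4.74-fold in Roma, with no overlap. Its pathway entry, unlike its GO terms, is for plant secondary compounds, and the table does not say which is right. SORBI_3009G009800, annotated to wounding and jasmonate, a hormone of defence, was at 8.89, 7.93 and 10.1 FPKM in M-81E-CK and 1.84, 2.24 and 1.26 in M-81E-salt, and at 3.18, 8.07 and 7 in Roma-CK and 0.668, 0.297 and 0.0967 in Roma-salt. SORBI_3006G191600, annotated to oxidative stress, was at 15.3, 13.8 and 11.5 FPKM in M-81E-CK and 0.608, 2.60 and 2.24 in M-81E-salt, and at 4.54, 2.88 and 7.63 in Roma-CK and 0.472, 0.624 and 0.196 in Roma-salt. Both were lower in every salt library than in any control of the line.

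SORBI_3010G270300, with protein binding as its only GO term, was at 19.9, 18.9 and 27.96 FPKM in M-81E-CK and 4.89, 5.66 and 5.38 in M-81E-salt, and at 6.61, 11.9 and 11.5 in Roma-CK and 0.579, 0.463 and 0.649 in Roma-salt, a decline that was 4.19-fold in M-81E and 17.7-fold in Roma. The interaction test did not separate these declines (-0.91 on the log2 scale, limma adjusted p = 0.125). The other 3 are listed at 0 in some libraries and are given without folds. SORBI_3010G160000, annotated as an acyl hydrolase of phosphatidylcholine, a membrane lipid, was at 139.8, 134 and 139 FPKM in M-81E-CK and 26.6, 0 and 1.76 in M-81E-salt, and at 24.6, 43.9 and 38.5 in Roma-CK and 0, 0 and 9.74 in Roma-salt. Each of its salt groups mixes a 0 with a value well above it, yet no salt library reached a control of its own line. SORBI_3004G246600, without a GO term, was at 2.43, 5.82 and 16.5 FPKM in M-81E-CK and 0.272, 0 and 0.708 in M-81E-salt, and at 6.87, 7.53 and 7.92 in Roma-CK and 3.59, 0 and 0.0396 in Roma-salt, again with no overlap. SORBI_3001G331000, also without one, was at 5.21, 5.68 and 3.10 FPKM in M-81E-CK and 0, 0 and 4.22 in M-81E-salt, and at 3.56, 3.69 and 3.08 in Roma-CK and 0, 0 and 0 in Roma-salt, and here a single M-81E-salt library lay among the controls.

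Adjusted p-values from limma were 5.21e-05 to 0.0372 over the 12 loci that rose and 2.07e-05 to 0.00927 over the 12 that fell. These loci were chosen for their size in the same libraries, so the p-values are a description. The interaction of line and salt passed the adjusted threshold for 1 of the 24, the phosphoglycerate mutase.

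Sugar metabolism contained shared loci of both directions, with 7 of 48 sucrose and starch loci higher in salt and 7 lower (14.6% each, against 5.68% and 4.41% of all tested loci). Small enzyme families are given in full. These families were picked after the leading loci had been seen, so their counts are descriptions. The GO term for sucrose synthase was carried by 8 loci, which their enzyme numbers divide into 3 sucrose synthases and 5 sucrose-phosphate synthases, enzymes on the route that makes sucrose. Of the sucrose synthases the locus above was the single one called. Its family had a median of 0.074 on the log2 scale. Of the sucrose-phosphate synthases 2 were higher, with a median of 0.426, and 0 loci of either family were lower (0 also at an unadjusted p under 0.05 in limma). The sucrose-phosphate synthase SORBI_3009G233200 was at 13.1, 13.8 and 15.3 FPKM in M-81E-CK and 28.2, 19.9 and 23.6 in M-81E-salt, and at 17.8, 16.6 and 15.1 in Roma-CK and 30.2, 27.9 and 37.2 in Roma-salt, without overlap in either line. SORBI_3003G403300, of the same family, was called in the main effect (0.47) but not in M-81E on its own (0.30).

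Beta-amylases had 2 of 5 loci lower (against 4.41% of all tested loci) and 0 higher (against 5.68%), also 0 at an unadjusted limma p under 0.05. The other of the pair, SORBI_3001G372100, was at 58.5, 47.3 and 50.9 FPKM in M-81E-CK and 14.8, 14.6 and 13.3 in M-81E-salt, and at 14.5, 21.8 and 26.4 in Roma-CK and 9.79, 11.5 and 8.85 in Roma-salt. It fell 3.67-fold in M-81E and 2.08-fold in Roma, and the interaction did not pass (limma adjusted p = 0.126). Catalases had 2 of 3 loci higher. The more abundant, SORBI_3010G274500, was at 104, 113 and 105 FPKM in M-81E-CK and 137, 143 and 149 in M-81E-salt, and at 122, 115 and 121 in Roma-CK and 146, 148 and 169.7 in Roma-salt, a small rise (0.39 ± 0.066 SE) that kept the treatments apart. The third, SORBI_3001G517700, had a main effect of 0.83 with a limma adjusted p of 0.0588.

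The galactinol-sucrose galactosyltransferases moved in opposite directions within the family, with 4 of 7 loci lower and 3 higher, against 4.41% and 5.68% of all tested loci. SORBI_3006G122400 was at 7.33, 6.41 and 9.95 FPKM in M-81E-CK and 2.87, 1.43 and 1.81 in M-81E-salt, and at 6.60, 13 and 12.1 in Roma-CK and 2.46, 2.50 and 2.68 in Roma-salt, a decline of 3.88-fold and 4.15-fold. SORBI_3010G057300 and the weakly expressed SORBI_3010G057400 fell as well, with main effects of -0.77 and -0.34. Opposite to these, SORBI_3002G075800 was at 1.59, 1.84 and 1.58 FPKM in M-81E-CK and 5.62, 5.37 and 4.27 in M-81E-salt, and at 16.1, 14.2 and 30.8 in Roma-CK and 66.4, 80.2 and 124 in Roma-salt, a rise of 3.04-fold and 4.43-fold. Roma expressed it above M-81E under both treatments. The other 2 that rose did so by the Roma libraries: SORBI_3003G052300 had a difference of 0.33 in M-81E and 2.62 in Roma, and SORBI_3001G044800 had 0.20 and 1.21. Neither was shared, and their calls in the main effect did not hold in 9 and 10 of 21 alternatives, among them the omission of any single Roma library.

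**Figure D3:**
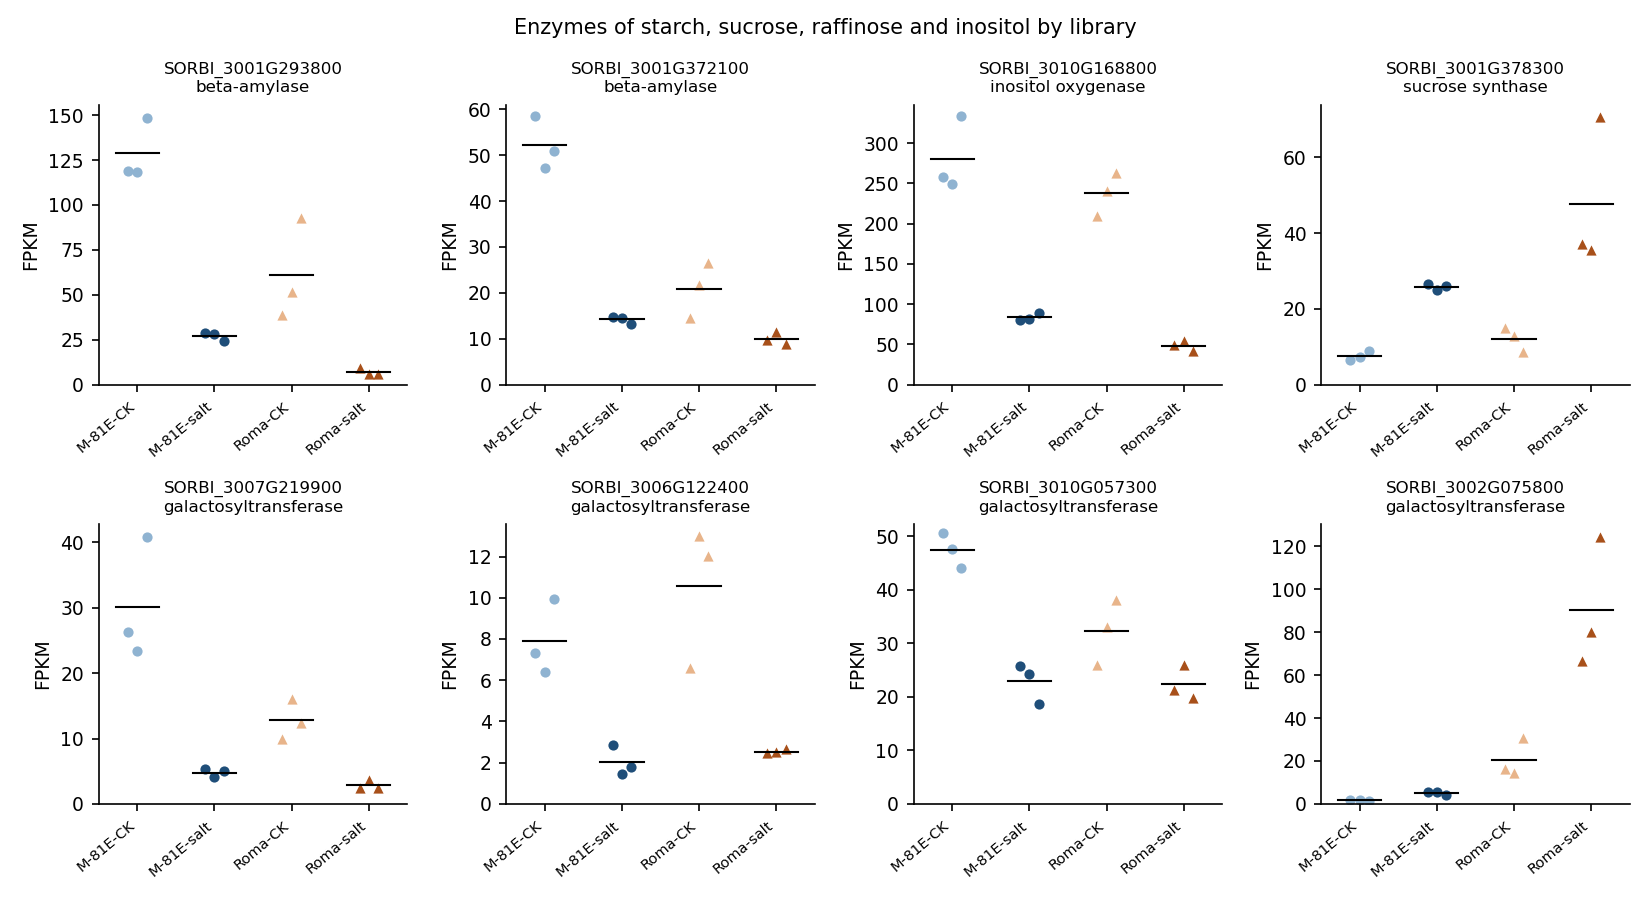
FPKM of 8 loci of carbohydrate metabolism in the 12 libraries, a panel for each locus with the 4 groups on the x axis, a point for each library and a bar at each group mean. The beta-amylases, the inositol oxygenase and 3 galactosyltransferases were lower in salt in both lines, and the sucrose synthase SORBI_3001G378300 and the galactosyltransferase SORBI_3002G075800 were higher.

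Sugar transporters also changed in both directions, with 7 of 63 higher (11.1%) and 8 lower (12.7%), and 4 higher without Roma-CK replicate 2. Of 52 sugar:proton symporters, which carry sugar into the cell together with protons, 7 were lower and 3 higher (7 and 0 without Roma-CK replicate 2), with a median of -0.133 on the log2 scale. Of 11 loci annotated only as sugar transmembrane transporters, 4 were higher and 1 lower, with a median of 0.294. All tested loci had a median of 0.010, with 5.68% higher and 4.41% lower. SORBI_3002G338500, a glucose symporter and among the most abundant shared loci, was at 1671, 1482 and 1866 FPKM in M-81E-CK and 586, 624 and 693 in M-81E-salt, and at 715, 1063 and 1127 in Roma-CK and 629, 631 and 411 in Roma-salt. It fell 2.64-fold in M-81E and 1.74-fold in Roma, with all salt libraries below all controls (main effect -1.09 ± 0.17 SE, limma adjusted p = 0.00342).

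SORBI_3002G073600, another glucose symporter, was at 3.89, 3.42 and 1.45 FPKM in M-81E-CK and 0.888, 0.931 and 0.266 in M-81E-salt, and at 0.928, 2.92 and 2.04 in Roma-CK and 0.0573, 0.0880 and 0.0283 in Roma-salt, which is under 0.1 FPKM in every Roma-salt library. On the rising side, SORBI_3001G373600 was at 0, 0 and 0.0554 FPKM in M-81E-CK and 2.01, 1.76 and 1.48 in M-81E-salt, and at 5.68, 3.44 and 9.41 in Roma-CK and 34.4, 17.4 and 36.5 in Roma-salt. In M-81E this transporter went from 0 or almost 0 to a low level, and in Roma it rose 4.77-fold from a higher start. SORBI_3005G123500 and SORBI_3008G094000 rose by 0.81 and 0.75. SORBI_3001G377600 rose by 0.47 in M-81E and 1.34 in Roma, a difference that passed the interaction test (limma adjusted p = 0.0355).

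In glycolysis, 10 of 65 tested loci were lower (15.4%, against 4.41% of all loci) and 4 were higher (6.15%), and the median was -0.179. The hexokinases, which phosphorylate glucose on entry to the pathway, went both ways. SORBI_3009G069800 was at 110.1, 71.7 and 117 FPKM in M-81E-CK and 51.6, 39.6 and 44.3 in M-81E-salt, and at 52.4, 76.03 and 96.5 in Roma-CK and 30.4, 32.3 and 28.2 in Roma-salt, and SORBI_3003G035500 was at 4.87, 4.36 and 5.63 FPKM in M-81E-CK and 9.58, 9.92 and 11.1 in M-81E-salt, and at 5.52, 4.39 and 3.83 in Roma-CK and 10.3, 8.50 and 12.8 in Roma-salt. The abundant locus fell by 1.17 and the scarcer one rose by 0.98 in the main effect, each without overlap.

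Further down the pathway, the aldolase SORBI_3004G146000 had a small decline (main effect -0.52 ± 0.078 SE). The triose-phosphate isomerase SORBI_3003G352300 was at 41.2, 40.1 and 47.4 FPKM in M-81E-CK and 27.4, 32.2 and 29.5 in M-81E-salt, and at 134, 108 and 97.3 in Roma-CK and 36.6, 45.8 and 41.4 in Roma-salt, lower in both lines and by more in Roma (interaction -0.91, limma adjusted p = 0.0387). The phosphoglycerate kinase SORBI_3010G221800 was at 25.4, 20.4 and 21.6 FPKM in M-81E-CK and 40.1, 38.8 and 38.7 in M-81E-salt, and at 24.6, 31.1 and 37.1 in Roma-CK and 48.96, 52.3 and 76.4 in Roma-salt and rose by 0.84. Of 24 loci of the tricarboxylic acid cycle, 2 were higher (8.33%, against 5.68% of all loci) and 0 lower. At an unadjusted limma p under 0.05, 5 were higher and 3 lower. With the replicate number as a block, 0 were called higher. SORBI_3002G316900, an aconitase, which converts citrate to isocitrate, was at 0.154, 0.167 and 0.0823 FPKM in M-81E-CK and 1.56, 1.21 and 0.779 in M-81E-salt, and at 0.627, 0.558 and 0.789 in Roma-CK and 12.1, 14.7 and 29.03 in Roma-salt. Both lines rose from under 1 FPKM, to about 1 FPKM in M-81E and to over 10 in Roma, and the responses differed (2.54, limma adjusted p = 0.0113).

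Ion transport held the channel with the leading rise and its relatives. Of 79 loci for sodium, potassium and proton transport, 10 were higher (12.7%, against 5.68% of all loci) and 4 lower (5.06%). Without Roma-CK replicate 2 the higher count was 6, where 465 of all 15250 tested loci were higher. Among the 15 voltage-gated potassium channels, 5 were higher and 1 lower, and 2 were higher without that library. SORBI_3003G237900, the channel that fell, was at 35.9, 29.2 and 23.2 FPKM in M-81E-CK and 16.4, 11.6 and 12.02 in M-81E-salt, and at 37.04, 33.4 and 43.1 in Roma-CK and 12.2, 13.4 and 10.1 in Roma-salt, a decline of 2.20-fold and 3.19-fold without overlap. SORBI_3010G102800 was at 4.25, 4.73 and 6.40 FPKM in M-81E-CK and 11.9, 6.23 and 9.22 in M-81E-salt, and at 4.25, 2.11 and 2.56 in Roma-CK and 5.98, 5.34 and 7.96 in Roma-salt, with overlap between the treatments in M-81E.

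Proton-exporting ATPases energise uptake across the plasma membrane, and of 8 tested loci 1 was higher and 1 lower. Their median was 0.058, and over all tested loci 5.68% were higher and 4.41% lower. SORBI_3001G132400 was at 2.31, 2.74 and 2.35 FPKM in M-81E-CK and 5.95, 4.74 and 5.19 in M-81E-salt, and at 3.77, 3.21 and 3.37 in Roma-CK and 24.1, 23.2 and 44.9 in Roma-salt. Its rise was 2.15-fold in M-81E and 8.91-fold in Roma, and the responses differed (interaction 1.91, limma adjusted p = 0.0148). SORBI_3001G352200 was at 1.01, 1.45 and 2.03 FPKM in M-81E-CK and 0.191, 0.347 and 0.532 in M-81E-salt, and at 3.20, 5.59 and 3.02 in Roma-CK and 1.66, 1.39 and 0.954 in Roma-salt, lower in every salt library than in the controls of its line.

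Water channels, or aquaporins, had 5 of 24 loci lower (20.8%, against 4.41% of all loci) and 0 higher, all 5 shared. At an unadjusted limma p under 0.05, 8 were lower and 3 higher. The differences of 16 of the 24 were negative, and the median was -0.215. By line the median was -0.054 in M-81E and -0.373 in Roma. Among uncalled members, SORBI_3004G102200 fell in M-81E and rose in Roma (-1.31 and 0.68), and SORBI_3001G195800 did the reverse (0.34 and -0.73). Without Roma-CK replicate 2, 2 of the 24 were called lower. SORBI_3001G389900 was at 4.06, 3.48 and 3.60 FPKM in M-81E-CK and 1.84, 1.81 and 1.03 in M-81E-salt, and at 3.43, 3.92 and 6.41 in Roma-CK and 1.66, 2.20 and 1.07 in Roma-salt. SORBI_3002G125700 was at 5.92, 6.59 and 4.85 FPKM in M-81E-CK and 4.15, 4.71 and 3.02 in M-81E-salt, and at 1.75, 2.83 and 2.96 in Roma-CK and 0.746, 1.05 and 0.556 in Roma-salt. Both kept the treatments apart, with main effects of -0.98 and -0.71. The locus with the largest decline holds 2 annotated genes, SORBI_3006G170500 and SORBI_3006G170600, whose reads are not divided, and it was not called in 9 of 20 alternatives.

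Of 119 loci with peroxidase activity, 20 were lower (16.8%, against 4.41% of all tested loci) and 5 higher (4.2%, against 5.68%), and the median was -0.157. Without Roma-CK replicate 2 these counts were 15 and 0. SORBI_3001G189000, a peroxidase of the cell wall, was at 17.3, 15.7 and 23.3 FPKM in M-81E-CK and 4.59, 5.28 and 9.31 in M-81E-salt, and at 40.4, 23.2 and 31.1 in Roma-CK and 13.2, 6.01 and 14.4 in Roma-salt. SORBI_3002G416600 and SORBI_3002G416700, adjacent peroxidases annotated to lignin synthesis, had main effects of -1.17 ± 0.16 and -1.22 ± 0.19 (SE). None of these 3 had overlapping treatments in either line.

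Among 92 loci for lignin, suberin and the Casparian strip, 13 were lower (14.1%) and 4 higher (4.35%), against 4.41% and 5.68% of all loci. The counts were 8 and 1 when Roma-CK replicate 2 was left out. SORBI_3009G162300, whose entry is for laccase, an enzyme that polymerises lignin, had a main effect of -0.80 ± 0.19 SE. Loci annotated to guide stereospecific synthesis, the term carried by dirigent proteins, had 5 of 23 lower (21.7%) and 0 higher, with 7 lower and 1 higher at an unadjusted limma p under 0.05, and 18 of 23 differences were negative (median -0.461). SORBI_3005G218500 was at 7.38, 6.23 and 5.68 FPKM in M-81E-CK and 1.38, 1.05 and 0.518 in M-81E-salt, and at 3.71, 3.92 and 3.37 in Roma-CK and 1.03, 0.841 and 0.300 in Roma-salt, a decline of 6.54-fold and 5.08-fold. SORBI_3009G021600 was at 9.64, 10.8 and 13.7 FPKM in M-81E-CK and 2.64, 4.05 and 2.38 in M-81E-salt, and at 8.95, 9.91 and 6.01 in Roma-CK and 1.53, 3.50 and 1.43 in Roma-salt. Wall loosening, xyloglucan and cellulose loci were divided evenly, with 7 of 79 in each direction (8.86%).

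**Figure D4:**
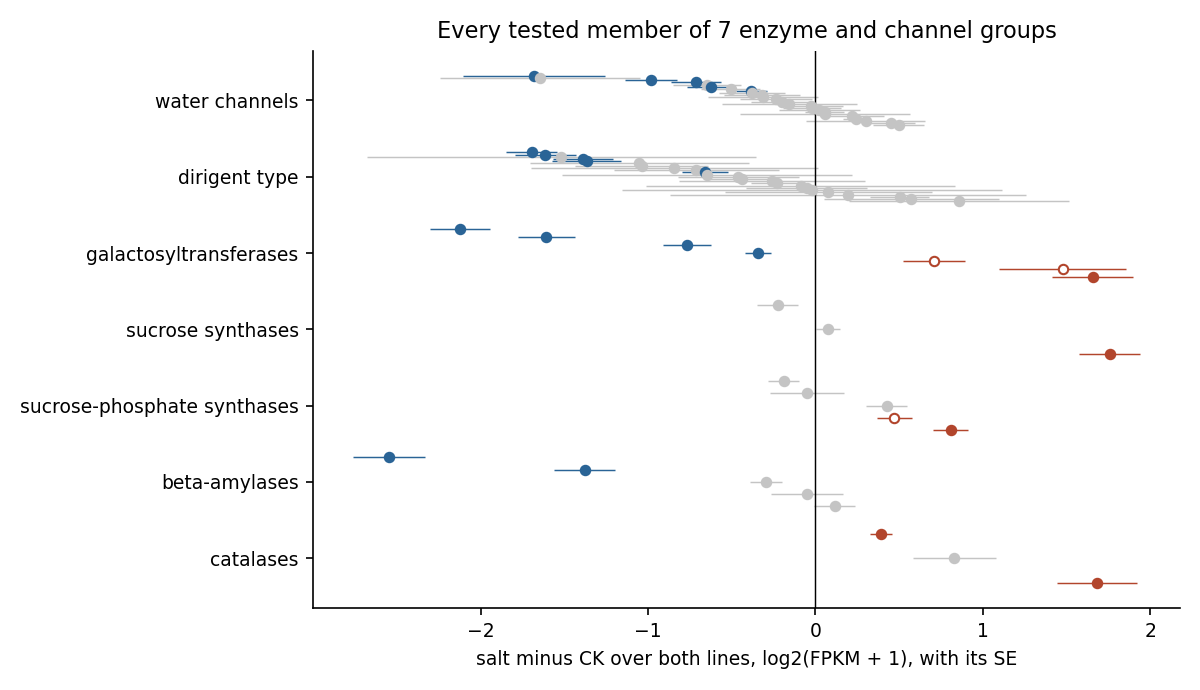
Salt minus CK main effect on log2(FPKM + 1) with its SE for each tested member of 7 small families, ordered within the family. Filled red and blue points are shared loci that were higher or lower, open points were called in the main effect alone, and grey points were not called. Called water channels, dirigent-type loci and beta-amylases lie below 0, the called sucrose synthase, sucrose-phosphate synthases and catalases above it, and galactosyltransferases on both sides.

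Of 289 loci annotated to the response to ABA, 31 were higher (10.7%, against 5.68% of all tested loci) and 13 lower (4.5%, against 4.41%). The median was 0.045, beside 0.010 for all tested loci. Without Roma-CK replicate 2 the higher count was 16, where 465 of all 15250 tested loci were higher. Of 150 annotated to water deprivation, 17 were higher (11.3%) and 6 lower (4%), or 12 and 1 without that library, and the median was -0.016 in M-81E and 0.125 in Roma. The 246 loci annotated to the response to salt stress were divided almost evenly, with 19 higher and 20 lower (7.72% and 8.13%). Their higher count was 11 without Roma-CK replicate 2 and also without Roma-salt replicate 2, and their lower count was 12 without Roma-salt replicate 1 and also without Roma-salt replicate 3. Of 27 for desiccation and cold acclimation, 6 were higher and 4 lower, or 3 and 3 without Roma-CK replicate 2.

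SORBI_3003G286700, a nuclear locus annotated to ABA and osmotic stress, was at 1.47, 1.21 and 1.09 FPKM in M-81E-CK and 2.98, 3.21 and 2.87 in M-81E-salt, and at 2.31, 2.59 and 3.53 in Roma-CK and 7.82, 12.2 and 12.9 in Roma-salt. Salt and CK did not overlap in either line (main effect 1.24 ± 0.17 SE, limma adjusted p = 0.00199). SORBI_3004G286600, annotated to cold acclimation and ABA, was at 677, 591 and 584 FPKM in M-81E-CK and 813, 768 and 673 in M-81E-salt, and at 664, 653 and 706 in Roma-CK and 1054, 1079 and 1067 in Roma-salt. It was the most abundant ABA-annotated locus described here, with a small change (0.47), treatments apart in Roma and overlapping at their edges in M-81E, and not called in 2 of 21 alternatives. Within ABA signalling itself, SORBI_3006G198800, annotated as an ABA-binding receptor that inhibits phosphatases, was at 28.9, 23.7 and 21.2 FPKM in M-81E-CK and 9.96, 19.97 and 17.9 in M-81E-salt, and at 56.8, 43.05 and 55.6 in Roma-CK and 19.03, 14.4 and 18.3 in Roma-salt, all lower in salt. SORBI_3001G406300, a protein phosphatase annotated to the same pathway, was at 107, 109 and 82.96 FPKM in M-81E-CK and 228, 215 and 131 in M-81E-salt, and at 139, 124 and 152 in Roma-CK and 169, 296 and 237 in Roma-salt, all higher in salt.

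Of 650 DNA-binding transcription factors, 56 were higher (8.62%, against 5.68% of all tested loci) and 12 lower (1.85%, against 4.41%), with a median of 0.094. The higher count was 29 without Roma-CK replicate 2, where 465 of all 15250 tested loci were higher. The table gives almost no family names for these factors. SORBI_3006G107400 was at 2.20, 2.04 and 1.86 FPKM in M-81E-CK and 4.18, 6.59 and 3.06 in M-81E-salt, and at 2.30, 3.46 and 3.73 in Roma-CK and 6.74, 9.03 and 10.8 in Roma-salt, and SORBI_3003G242800 was at 0.331, 0.405 and 0.382 FPKM in M-81E-CK and 1.77, 1.46 and 0.848 in M-81E-salt, and at 1.76, 1.05 and 0.789 in Roma-CK and 4.45, 3.85 and 6.91 in Roma-salt. Both rose without overlap. SORBI_3002G353800, which fell, was at 6.82, 14.8 and 22.4 FPKM in M-81E-CK and 3.11, 4.04 and 3.35 in M-81E-salt, and at 6.77, 9.15 and 13.97 in Roma-CK and 3.25, 2.39 and 1.78 in Roma-salt, again without overlap and with M-81E-CK libraries that spread over more than 3-fold.

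The hormone lists are read against the 5.68% higher and 4.41% lower of all tested loci. Auxin had 16 of 165 loci higher (9.7%) and 7 lower (4.24%), and ethylene 11 of 141 higher (7.8%) and 2 lower (1.42%). Jasmonate had 2 of 102 higher (1.96%) and 7 lower (6.86%), or 4 lower without M-81E-salt replicate 1, and the response to wounding 3 of 134 higher (2.24%) and 11 lower (8.21%). SORBI_3003G385500, a lipoxygenase, the kind of enzyme that starts jasmonate synthesis, was at 263, 302 and 193 FPKM in M-81E-CK and 134, 98.9 and 89.2 in M-81E-salt, and at 202, 334 and 362 in Roma-CK and 173, 171 and 120.2 in Roma-salt. It was lower in every salt library of its line. SORBI_3003G034400, annotated to jasmonate signalling, had differences of -0.80 in M-81E and -1.87 in Roma, and SORBI_3008G021800 had -0.82 and -1.48.

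**Figure D5:**
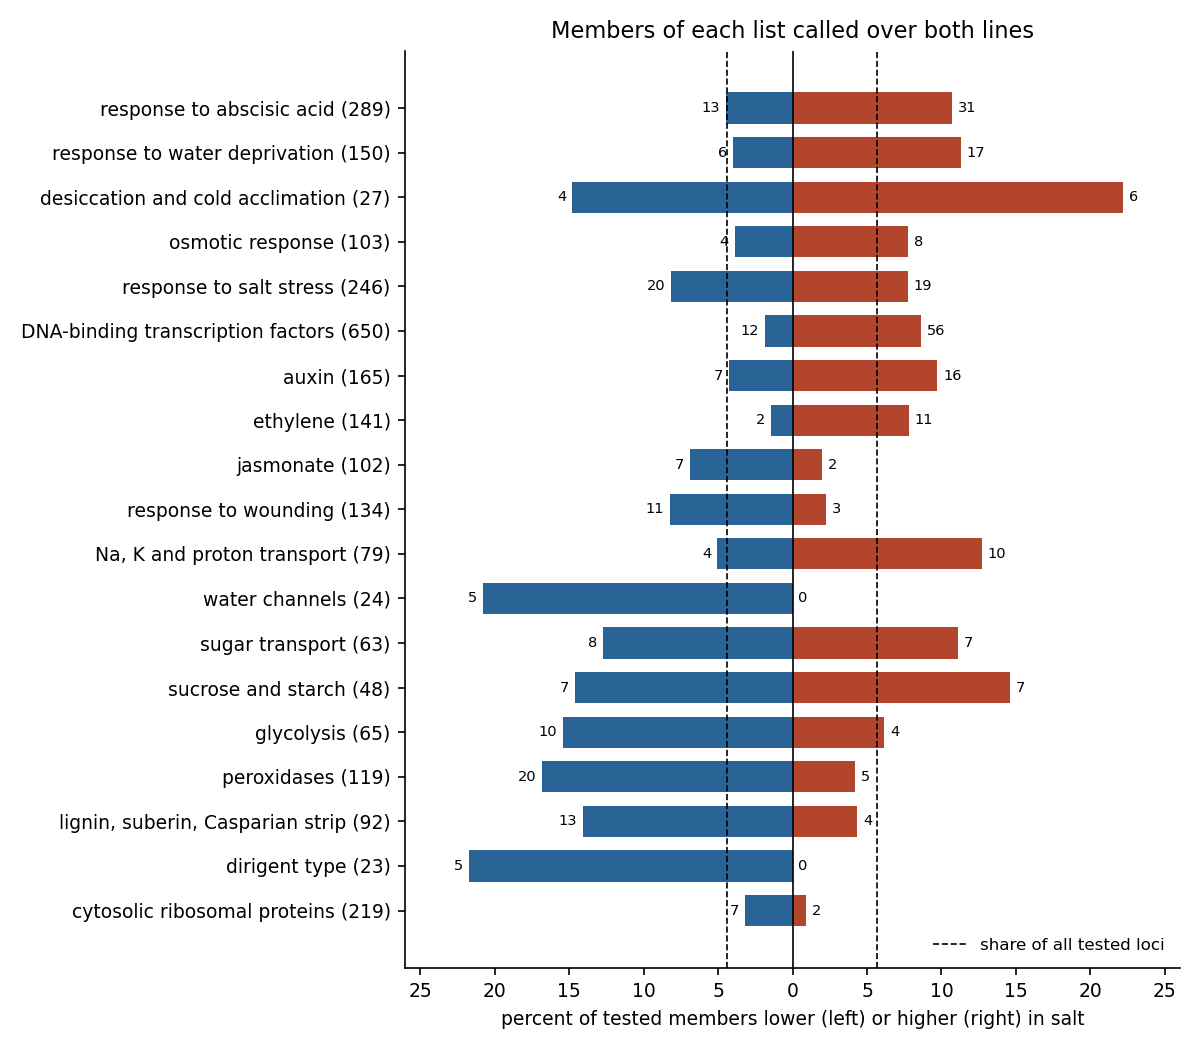
Percent of the tested members of each list that were higher (red) or lower (blue) in salt in the main effect, with the number of members beside the name and dashed lines at the shares of all tested loci, 5.68% and 4.41%. Many lists exceed the line for higher loci, among them transcription factors and the ABA list. Desiccation and cold acclimation (22.2%) and sucrose and starch (14.6%) do so by most. Many also exceed the line for lower loci, by most the dirigent-type loci (21.7%), water channels (20.8%) and peroxidases (16.8%).

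Cytosolic ribosomal proteins had few calls. Of 219 tested loci, 2 were higher (0.913%, against 5.68% of all loci) and 7 lower (3.2%, against 4.41%). Of their main effects 173 were negative, and the median was -0.247. The median was -0.414 in M-81E and -0.054 in Roma, so most of that shift lay in M-81E. The difference between the lines was not tested for the list. The summed FPKM of the dividing-cell markers moved beside it, from a median of 447 in M-81E-CK to 325 in M-81E-salt and from 495 in Roma-CK to 520 in Roma-salt, and its part in the result was not tested. The lower count ran from 3 to 22 when single libraries were left out and was 22 when libraries were rescaled to a common median. Heat and unfolded protein binding had 9 of 138 higher (6.52%) and 6 lower (4.35%), or 7 and 2 without Roma-CK replicate 2. SORBI_3004G116300, annotated to bind calmodulin and chaperones, was at 6.28, 6.24 and 5.42 FPKM in M-81E-CK and 18.5, 18.1 and 19.9 in M-81E-salt, and at 3.93, 3.11 and 3.08 in Roma-CK and 8.14, 8.08 and 11.6 in Roma-salt, a tight rise of 1.37 ± 0.11 SE (limma adjusted p = 8.47e-05).

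Other lists held calls in both directions, beside 5.68% higher and 4.41% lower over all tested loci. Osmotic and hyperosmotic response had 8 of 103 higher (7.77%) and 4 lower (3.88%), or 8 and 1 without Roma-CK replicate 2. Osmolyte synthesis had 5 of 36 in each direction (13.9%), or 1 higher and 4 lower without that library. Oxidative stress had 14 of 165 higher (8.48%) and 20 lower (12.1%), or 6 and 14 without it, and glutathione transferases 4 of 80 higher (5%) and 5 lower (6.25%), or 2 and 1 without it. Calmodulin binding and calcium-dependent kinases had 10 of 119 higher (8.4%) and 7 lower (5.88%). Serine/threonine phosphatases had 5 of 110 higher (4.55%) and 8 lower (7.27%), or 2 and 3 without Roma-CK replicate 2. Flavonoid synthesis had 7 of 76 higher (9.21%) and 6 lower (7.89%), or 4 and 3 without it. Hypoxia had 2 of 33 in each direction (6.06%), and of 50 loci for nitrate 5 were higher (10%) and 3 lower (6%). SORBI_3001G059100, a glutamate dehydrogenase, was at 25.1, 27.7 and 31.9 FPKM in M-81E-CK and 17.7, 14.8 and 13.2 in M-81E-salt, and at 34.1, 41.1 and 30.7 in Roma-CK and 13.3, 9.66 and 14.2 in Roma-salt, lower in salt without overlap. SORBI_3001G449600, an oxygen-binding heme protein annotated to hypoxia, was at 278, 241 and 266 FPKM in M-81E-CK and 159, 181 and 227 in M-81E-salt, and at 271, 349 and 422 in Roma-CK and 178, 189 and 132 in Roma-salt, also lower in salt and abundant in all groups.

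Of 506 GO terms with at least 20 tested loci, lateral root formation had the highest share of loci that were higher in salt, 7 of 22 (31.8%), beside 3 lower. Over all tested loci 5.68% were higher and 4.41% lower. SORBI_3003G378000, part of an auxin-dependent ubiquitin ligase, SORBI_3010G073600, annotated to auxin signalling, and SORBI_3004G255600, annotated to cleave sucrose, rose by 0.70, 0.62 and 0.89. Core promoter binding (8 of 27, 29.6%) and transcription from RNA polymerase II promoters (10 of 36, 27.8%) followed, with 2 and 4 loci when Roma-CK replicate 2 was left out. Next came brassinosteroid mediated signalling, the pathway of a growth hormone, with 8 of 30 higher (26.7%) and 1 lower, and the response to brassinosteroid with 7 of 30 higher (23.3%) and 0 lower (1 lower at an unadjusted limma p under 0.05). Without Roma-CK replicate 2 these higher counts were 5 and 4. SORBI_3001G382400 and SORBI_3002G431600, both kinases of that pathway, rose by 0.57 and 0.52. Terms overlap in their loci, and ranking by share favours small terms.

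On the lower side, acid phosphatases, which release phosphate from organic compounds, led with 10 of 35 loci (28.6%) against 1 higher. Of all tested loci 4.41% were lower and 5.68% higher. Without Roma-CK replicate 2 the lower count of the acid phosphatases was 3. SORBI_3007G091100 was at 1.06, 1.38 and 1.79 FPKM in M-81E-CK and 0.666, 0.799 and 0.599 in M-81E-salt, and at 23.8, 19.03 and 18.6 in Roma-CK and 11, 11.2 and 10.1 in Roma-salt. SORBI_3007G194100 had a main effect of -0.87 ± 0.16 SE. Amino acid binding (8 of 31), the RNA polymerase I complex (5 of 20), which transcribes ribosomal RNA, and O-methyltransferases (6 of 25, 24%) came next, each with 0 higher by limma and, in that order, 3, 1 and 1 higher at an unadjusted p under 0.05. Without Roma-CK replicate 2 their counts were 5, 3 and 4. Serine carboxypeptidases had 7 of 32 lower and 5 higher, all of them shared, or 6 and 2 without that library.

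The rule for shared loci asks for the same sign and a passing p in each line, so the sizes in the lines are given as a description. The median difference of loci that rose was 0.48 in M-81E and 0.55 in Roma, and of loci that fell -0.66 and -0.74. The Roma difference was the larger at 354 of the 582 that rose (60.8%) and 262 of the 467 that fell (56.1%). The interaction passed the adjusted threshold at 45 shared loci (4.29%), where 3.48% of all tested loci passed it. That count was 12 without M-81E-CK replicate 2 and also without M-81E-salt replicate 1, and it was 23 with the linear model of Ballgown. In the full fit Roma had the larger response at 22 of the 25 such loci that rose and 14 of the 20 that fell.

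A library listed at 0 occurred at 9 of the shared loci that rose and 14 of those that fell, and 2 and 5 of them were at 0 in all 3 libraries of a group. SORBI_3002G311300, annotated as a flavonoid glycosyltransferase, was at 9.81, 9.88 and 12.2 FPKM in M-81E-CK and 0, 0 and 0 in M-81E-salt, and at 2.35, 3.71 and 3.70 in Roma-CK and 0, 0 and 1.90 in Roma-salt. SORBI_3006G249600, a protein phosphatase, was at 7.08, 5.82 and 0 FPKM in M-81E-CK and 0, 0 and 0 in M-81E-salt, and at 1.85, 1.78 and 2.09 in Roma-CK and 0, 0 and 0 in Roma-salt, and was not called in 11 of 20 alternatives. Both changes rest on libraries listed at 0, and a listed 0 may stand for a failed estimate. A 0 in 1 library beside at least 1 FPKM in the other 2 occurred at 1.92% to 2.26% of loci, depending on the group. These shares are of the tested loci with at least 1 FPKM in 2 or more libraries of that group.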

How the data were processed

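RNA of sweet sorghum roots was sequenced in 12 libraries. The labels name a small RNA kit, whereas the methods describe strand-specific libraries depleted of ribosomal RNA for these transcripts. The authors processed reads with cutadapt, Bowtie2, TopHat2 and StringTie, named in their processing notes, and deposited 1 table of FPKM per locus. The genome build and tool versions are not given in the sources used here. Columns were matched to samples by name, with 0 left unmatched. The values carry no counts, so depth is known only relative to M-81E-CK replicate 1, from the steps between values at 6904 loci of at most 0.3 FPKM, and no counting interval was computed.

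Loci were fitted with limma 3.58.1 (eBayes with a trend, R 4.3.3) on log2(FPKM + 1). The lines were also fitted with 4 group means, which gave the differences within lines and the interaction of line and salt. No batch is given in the labels. Tables and figures were made with Python 3.11.15, numpy 2.4.6, pandas 2.3.3 and matplotlib 3.10.9. Tested on simulated data for this comparison (15250 loci), 76% of loci changed by 1 on the log2 scale in both lines and 93% of those changed by 2 were called shared, as were 0.5% of those changed by 2 in M-81E alone. Loci not changed in both lines made up 8.15% of the shared calls. In the simulation 14850 loci were unchanged, whereas 26.1% of the real loci had an unadjusted limma p under 0.05. Of the loci changed in M-81E alone, only 0.5% were called in the main effect, so the further rule for shared loci was hardly tried. These shares therefore cannot be carried over to the shared loci reported here.

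Members and lists were chosen with earlier results of these data known. The named loci were the 12 that rose and 12 that fell by most in both lines, ranked by the smaller difference among shared loci with a single gene name, up to 3 per list and direction, and GO terms with at least 20 tested loci, the leading 10 by share in each direction. Descriptions read "hypothetical protein" at 14184 of the 15250 loci (93%). Lists drawn by Description therefore held at most 2 tested loci, of which the LEA locus was higher and 1 each of the aquaporins, AP2/ERF factors and heat shock proteins lower, while sodium and potassium transport, heme peroxidases, lignin, NAC, HD-Zip, WRKY, MYB and bHLH factors had 0 called (1 of them, for lignin, at an unadjusted limma p under 0.05). The lists for ABA, water deprivation, salt stress, auxin, ethylene, jasmonate and phosphate were set before the annotation had been seen. So were those for iron, cytosolic ribosomal proteins, histones and DNA replication, glycolysis and circadian rhythm. Other lists by GO were added after the annotation had been seen, and the families of sugar enzymes, transporters, channels and pumps after the leading loci had. Loci with the GO term for sucrose synthase were divided by the enzyme (EC) number in the table. Other lists held 3 of 27 phosphate loci lower (11.1%) and 2 higher (7.41%), and 3 of 15 iron loci higher (20%) and 1 lower (6.67%). Histones and DNA replication had 2 of 62 loci higher (3.23%) and 4 lower (6.45%), and circadian rhythm 3 of 40 higher (7.5%) and 2 lower (5%). Over all tested loci 5.68% were higher and 4.41% lower. Sequences and coordinates of the loci were not used here.

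The alternatives were another pseudocount, other filters on level, libraries rescaled to a common median, a single prior variance, the linear model of Ballgown, an average of the line differences, the replicate number as a block, loci with a single gene name, stricter rules for shared loci and each library left out in turn.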

Additional observations from a re-analysis of the deposited data

Results flagged for a closer look

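A set of 196 loci held the leading loci, the leading members of lists and GO terms, and the family members called in the main effect. Of these, 12 (6.12%) differed in salt response between the lines by the interaction test (limma, adjusted over all 15250 loci). Over all tested loci 3.48% passed it. Family members that were not called were left out. Among these, the water channels SORBI_3010G087900 and SORBI_3004G102200 also passed the limma interaction test (adjusted p = 0.00666 and 0.00863). All of the values below are Roma minus M-81E differences of the salt response on the log2 scale, with the SE.

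Some of these loci rose by more in Roma. The LEA locus SORBI_3009G215700 differed by 4.68 ± 0.61 (adjusted p = 0.00862), the aconitase SORBI_3002G316900 by 2.54 ± 0.37 (adjusted p = 0.0113) and the galactosyltransferase SORBI_3003G052300 by 2.29 ± 0.31 (adjusted p = 0.00862). The proton-exporting ATPase SORBI_3001G132400 differed by 1.91 ± 0.30 (adjusted p = 0.0148), and the phosphoglycerate mutase SORBI_3001G384100 by 1.72 ± 0.40 (adjusted p = 0.0472). The galactosyltransferase SORBI_3001G044800 differed by 1.00 ± 0.22 (adjusted p = 0.0401). SORBI_3001G377600, a sugar transporter, and SORBI_3010G021300, a nucleosome-binding locus annotated to water deprivation, each differed by 0.87 ± 0.18 (adjusted p = 0.0355 and 0.0342). SORBI_3010G019000, a phosphate transporter of the vacuole membrane, rose by 0.42 in M-81E and 0.99 in Roma, a difference of 0.57 ± 0.12 (adjusted p = 0.0370).

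The other 3 fell by more in Roma. SORBI_3003G315166, described as an inositol phosphate kinase, had a difference of -1.56 ± 0.31 (adjusted p = 0.0284), the triose-phosphate isomerase SORBI_3003G352300 of -0.91 ± 0.20 (adjusted p = 0.0387) and the sugar:proton symporter SORBI_3001G362500 of -0.84 ± 0.17 (adjusted p = 0.0327). With the replicate number as a block, 0 of 508 shared loci passed the interaction test in limma, and 68 had an unadjusted p under 0.05.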

How the results depend on the processing

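The 866 loci higher in salt were 561 when every locus above 0 FPKM was tested and 576 at a mean of at least 5 FPKM. At that filter 357 and 286 loci were shared. With single libraries left out, 465 to 926 loci were higher and 431 to 629 lower, 399 to 701 were shared and higher and 366 to 469 shared and lower, and the lowest of each came without Roma-CK replicate 2. An adjusted p in both lines left 133 shared loci higher and 151 lower, and a log2 difference of at least 1 in both lines left 35 and 75. The 45 shared loci whose response differed in size became 28 with a pseudocount of 0.1, 27 at a mean of at least 5 FPKM, 23 with the linear model of Ballgown and 12 to 35 with a library left out. Rescaling gave 888 higher and 887 lower, of which 584 and 569 were shared.

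The labels do not say whether libraries with the same replicate number were paired. Deviations of libraries with the same number correlated at -0.056 to 0.041 over 6 pairs, and 1 CK library correlated best with its own number. With the number as a block, 247 loci were higher and 261 lower, with 247 and 261 counted as shared, and 0 differed in size, although 68 of the 508 had an unadjusted interaction p under 0.05 (169 of 1049 without the block). The cause of these lower counts was not tested.

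Of the 1049 shared loci, 741 to 920 were still shared with a library left out, 486 with the block and 905 to 1049 under the other fits that tested all of them, and 0 reversed. At a mean of at least 5 FPKM, 640 of the 1049 were tested again and 624 of these were still shared, as were 964 of the 972 loci with a single gene name. Of the 24 leading loci, 21 were called in every alternative. SORBI_3003G149200 was lost in 11, and SORBI_3001G331000 and SORBI_3010G231900 with the block only (limma adjusted p 0.0565 and 0.0571). Of the set of 196 loci defined above, 118 were called in every alternative and 0 reversed. Of 1428 list counts under alternatives, 1123 stayed within 1.5 times the reported count.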
